A study of Mus musculus with 6 samples.

Results

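The genes described here encode 10 proteins of the machinery that methylates lysine 4 of histone H3 (H3K4), chosen for their part in the complexes with which the zinc finger protein Zfp335 has been linked, and not by a cutoff on any value in the data, although earlier results of these data were known when they were chosen. They are 10 of the 32285 gene rows of the count table. They fall into 4 roles: the cofactors Ncoa6 and Paxip1, the methyltransferases Kmt2a, Kmt2c and Kmt2d, the common core of Wdr5, Rbbp5, Ash2l and Dpy30 (called WRAD after its initials), and Hcfc1. Each of the 10 had a single row in the table, and all 10 passed the filter on low counts. The question is whether the mRNAs of these partners changed when Zfp335 was deleted.

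Methylation of H3K4 marks active chromatin: trimethylation is concentrated at promoters and monomethylation at enhancers. The enzymes of the KMT2 and SET1 families carry out this step, and each of them is only weakly active until the WRAD core is bound. NCOA6 and PAXIP1 are particular to the complexes of KMT2C and KMT2D, which act mainly at enhancers, and HCFC1 serves the KMT2A, KMT2B and SET1 complexes, which act mainly at promoters. NCOA6 is also a coactivator of nuclear receptors, and Zfp335 was originally described as a protein that binds it.

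The study sorted CD4+CD25+ regulatory T cells (Tregs) from the spleens of C57BL/6 mice and sequenced their RNA, with 3 WT and 3 KO libraries. The KO mice were ERCre+Zfp335f/f, carrying loxP-flanked Zfp335 alleles and a Cre recombinase that tamoxifen activates. The WT samples are labelled as wild-type littermates, whereas the study's methods speak of ERCre mice given tamoxifen, so whether the controls carried Cre is not settled by the sources used here. Tamoxifen was given at 6 weeks of age on days 1, 3 and 5, and the mice were killed on day 7. ERCre acts in every cell type that carries it, so the deletion was not restricted to Tregs. Nothing in the labels says that each library came from a separate mouse, and the p-values measure the spread between these libraries only.

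The libraries held 133283969 to 209041812 counts each. Zfp335 itself stood at 115 to 124 counts per 1000000 library counts (CPM) in WT and at 14.3 to 15.1 CPM in KO, so every library matched its labelled genotype. The 6 Treg markers were detected in all libraries, and 3 of them were called by edgeR. Foxp3, the lineage transcription factor, fell from 1136 to 1052 CPM (-0.11, edgeR adjusted p = 0.0163), Il2ra (CD25), the sorted surface receptor, fell from 479.6 to 433 CPM (-0.15, adjusted p = 0.00658), and Ctla4, an inhibitory receptor, rose from 410.3 to 645 CPM (0.65, adjusted p = 9.56e-09). Cd4 lay between 680.4 and 710.4 CPM and was not called. Markers of other cells moved with genotype as well. The summed level of 4 B cell markers was 38.5 to 42.4 CPM in WT and 19.1 to 20.8 CPM in KO, with 4 of 4 lower. For 5 myeloid markers the sums were 37.7 to 43.2 and 20.001 to 21.9 CPM, with 4 of 5 lower. For 4 red cell globins they were 35.8 to 42.8 and 1.67 to 2.15 CPM, with 4 of 4 lower. The 2 CD8 markers summed to 8.34 to 9.71 CPM in WT and 8.62 to 8.65 CPM in KO, and the 3 NK markers to 7.45 to 7.60 and 6.68 to 8.14 CPM. These 5 genes were not called. No marker was at 0 in any library. Xist, which is transcribed from the inactive X chromosome of females, was at most 0.424 CPM in WT and at least 124 CPM in KO. The Y-linked Kdm5d was present in both, at 42.3 to 44.7 CPM in WT and 34.9 to 36.5 CPM in KO. The KO libraries thus held Xist and Y-linked RNA together, which the WT libraries did not, and this difference cannot be told apart from genotype. The part of these differences in the results below was not tested. In bulk RNA, fewer cells expressing a gene and less of its RNA per cell cannot be told apart.

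All 10 complex genes changed little. Between WT and KO, 3 of them were called by edgeR's quasi-likelihood test at a Benjamini-Hochberg adjusted p under 0.05: Ncoa6 rose, and Rbbp5 and Hcfc1 fell. Across the 17307 tested genes, 24.1% were called, with 12.0% higher and 12.1% lower, and 34.1% were called among the 6722 genes at least as abundant as the lowest complex gene. The 30.0% of the complex genes lies between these shares, close to the background. The count rested on single libraries: it was 1 without WT replicate 2, KO replicate 2 or KO replicate 3, 2 without KO replicate 1 and 6 without WT replicate 3, where 15.4%, 15.6%, 16.7%, 16.2% and 22.9% of all tested genes were called. Their median log2 fold change was -0.021 against -0.0042 for all tested genes, and 5 estimates were above 0 and 5 below. None of the 10 passed the cutoffs of the study (1.5-fold, p under 0.05 and adjusted p under 0.1), which 6.95% of tested genes passed, 2.58% higher and 4.37% lower. This count was 0 with edgeR, DESeq2 and limma-voom. With edgeR, 5 of the 10 had an unadjusted p under 0.05, but the 95% confidence interval of every one of the 10 lay inside 1.5-fold in both directions. WT and KO libraries did not overlap in CPM for 4 of the 10 genes (Ncoa6, Rbbp5, Dpy30 and Hcfc1) and for 38.3% of all tested genes.

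**Figure D1:**
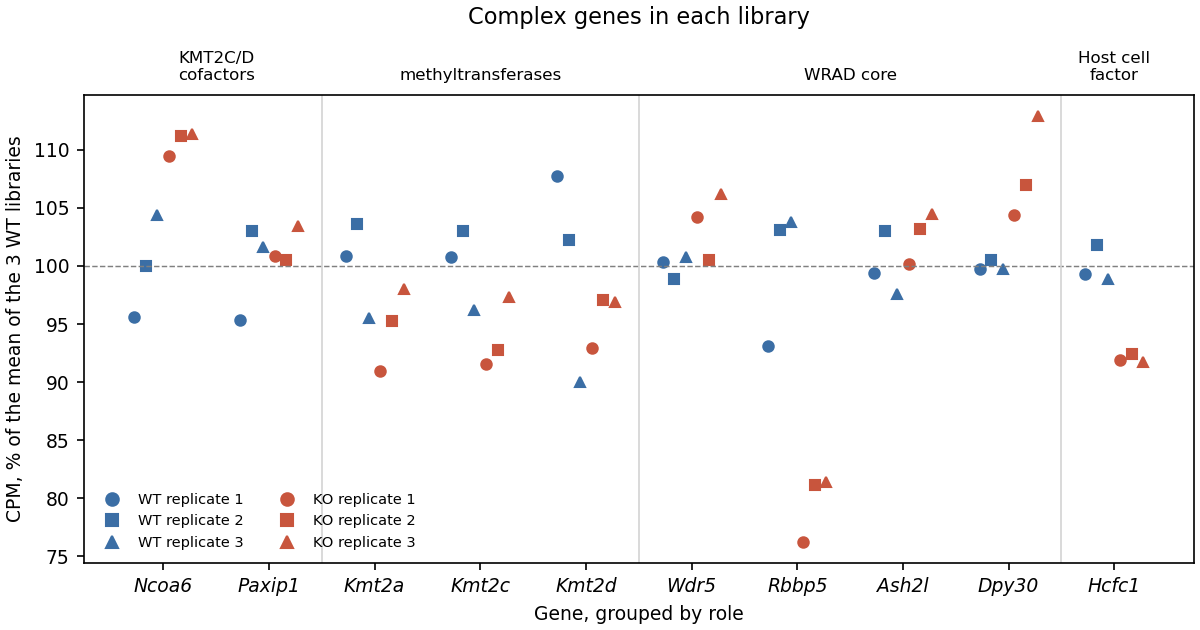
CPM of each complex gene in the 3 WT (blue) and 3 KO (red) libraries, as a percent of the mean of the WT libraries (vertical axis), with genes grouped by role (horizontal axis). The KO points of Rbbp5 and Hcfc1 lie below all WT points and those of Ncoa6 and Dpy30 above them, while the groups overlap for the other 6 genes.

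**Figure D2:**
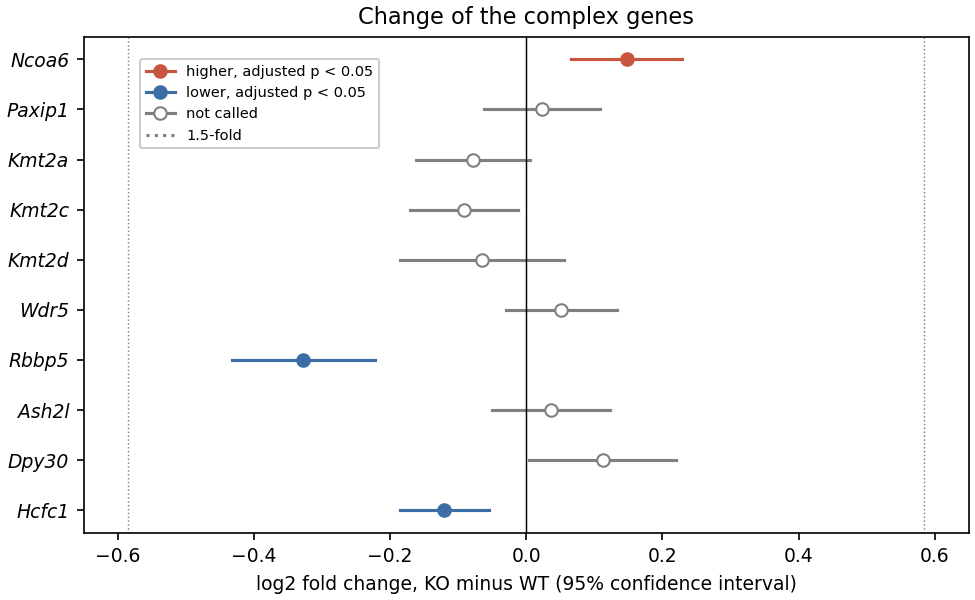
Fold change of each complex gene, KO minus WT on the log2 scale, with its 95% confidence interval from edgeR. Filled points are called at an adjusted p under 0.05, and dotted lines mark 1.5-fold. Rbbp5, at -0.33, lies farthest from 0, and no interval reaches 1.5-fold.

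Rbbp5 encodes a WD-repeat subunit of the core that joins ASH2L to the methyltransferase (chr1:132477365-132505659 in GRCm38, plus strand). Its level was 56.1, 62.1 and 62.5 CPM in the WT libraries and 45.9, 48.9 and 49.0 CPM in the KO libraries. The highest KO value was below the lowest WT value, and KO replicate 1 and WT replicate 1 were the lowest of their groups. The means were 60.2 ± 3.59 and 47.9 ± 1.74 CPM (SD, n = 3), a difference of -20.3% (95% confidence interval -25.9% to -14.3%) and a log2 fold change of -0.33 (SE 0.049, edgeR adjusted p = 0.000295). An exact permutation test of the log2 CPM gave a two-sided p of 0.1, which is the smallest that 3 against 3 libraries allow. The call held in all 18 other fits, with log2 fold changes from -0.38 to -0.30. Of the 50-base stretches of Rbbp5 exons, 5.45% also occur in the pseudogene Gm11977, so a small share of its reads could be counted elsewhere.

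The other core subunits did not follow Rbbp5. Wdr5, a WD-repeat protein that holds the methyltransferase to the core, read 60.5, 59.6 and 60.8 CPM in WT and 62.9, 60.6 and 64.0 CPM in KO, and the groups overlapped. Its log2 fold change was 0.052 (SE 0.038, edgeR adjusted p = 0.37), and the interval ran from a difference of -2.06% to one of 9.67%. Ash2l, whose product stimulates the enzyme together with RBBP5, read 48.7, 50.4 and 47.8 CPM in WT and 49.1, 50.5 and 51.1 CPM in KO. These libraries overlapped too, with a log2 fold change of 0.036 (SE 0.040, edgeR adjusted p = 0.576) and an interval from -3.45% to 8.89%. Dpy30, the small subunit that binds ASH2L, read 21.7, 21.8 and 21.7 CPM in WT and 22.7, 23.2 and 24.5 CPM in KO. All KO libraries of Dpy30 lay above the narrow WT range, but its log2 fold change of 0.11 (SE 0.050) was not called (edgeR adjusted p = 0.127). The interval ran from 0.331% to 16.4%. Dpy30 was called higher when the trend with GC content was removed (0.14, edgeR adjusted p = 0.0394), but not when the replicate block was added to that fit (0.14, adjusted p = 0.069).

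Ratios of raw counts within a library do not depend on how libraries are scaled, and they showed the same split of the core. They reuse the counts in which Rbbp5 had already separated the groups. The ratios with Rbbp5 and their p-values are therefore no further evidence of its fall. They show only that the fall does not rest on scaling. The Rbbp5 to Ash2l ratio was 1.15, 1.23 and 1.31 in WT and 0.936, 0.967 and 0.958 in KO. Rbbp5 thus had more counts than Ash2l in every WT library and fewer in every KO library, with no overlap. The mean Rbbp5 to Wdr5 ratio was 0.999 ± 0.062 in WT and 0.767 ± 0.038 in KO (SD, n = 3). The mean Rbbp5 to Dpy30 ratio was 2.77 ± 0.160 and 2.04 ± 0.054. Neither of these overlapped between the groups, and exact two-sided permutation tests of all 3 ratios gave the smallest possible p of 0.1. By contrast, the Wdr5 to Ash2l ratio was 1.23 ± 0.046 in WT and 1.24 ± 0.041 in KO, with overlapping libraries (exact two-sided permutation p = 0.7).

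**Figure D3:**
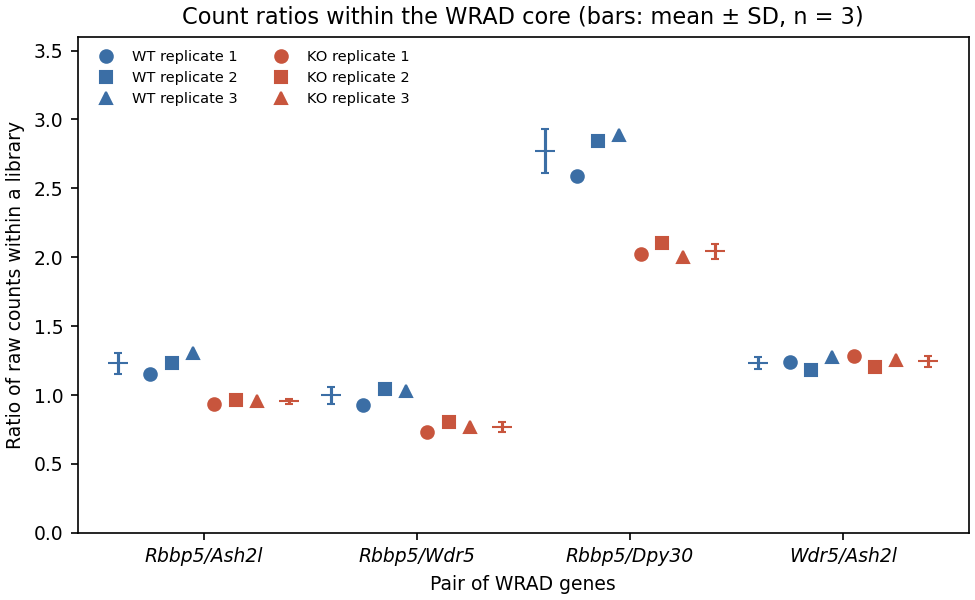
Ratio of raw counts within a library (vertical axis) for 4 pairs of WRAD genes, with the 3 WT libraries in blue, the 3 KO libraries in red, and bars at mean ± SD. The ratios with Rbbp5 are lower in every KO library than in every WT library, whereas the Wdr5 to Ash2l ratio overlaps between the groups.

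Ncoa6, the nuclear receptor coactivator of the KMT2C and KMT2D complexes (chr2:155390656-155473894 in GRCm38, minus strand), read 111, 116 and 122 CPM in WT and 128, 129 and 129.6 CPM in KO. Every KO library exceeded every WT library, and the spread within KO was narrower than within WT. The means were 116 ± 5.09 and 129 ± 1.19 CPM (SD, n = 3), a rise of 10.7% (95% confidence interval 4.70% to 17.1%) and a log2 fold change of 0.15 (SE 0.037, edgeR adjusted p = 0.0117). The exact two-sided permutation p was 0.1, the smallest possible. The direction held in all 18 other fits, with log2 fold changes from 0.12 to 0.18. The call was lost without WT replicate 2 (edgeR adjusted p = 0.0529), KO replicate 2 (0.0588) or KO replicate 3 (0.0517).

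Paxip1, a BRCT-domain protein that sits with PAGR1 in the same complexes, read 74.5, 80.5 and 79.4 CPM in WT and 78.8, 78.6 and 80.8 CPM in KO. The WT and KO libraries overlapped, WT replicate 1 being the lowest of the 6. The log2 fold change was 0.023 (SE 0.039, edgeR adjusted p = 0.727), with an interval from -4.17% to 7.79%. The sign was not settled: it turned to -0.012 without WT replicate 1 and to -0.0075 when libraries were scaled by their totals alone. The Ncoa6 to Paxip1 count ratio was 1.49 ± 0.042 in WT and 1.62 ± 0.022 in KO, without overlap (exact two-sided permutation p = 0.1). Within the libraries the Ncoa6 to Rbbp5 ratio went from 1.94 ± 0.056 to 2.69 ± 0.074, also without overlap (exact two-sided permutation p = 0.1). Ncoa6 and Rbbp5 had each separated the groups, in opposite directions, so this result was fixed in advance. The Ncoa6 to Kmt2c ratio went from 0.369 ± 0.027 in WT to 0.435 ± 0.011 in KO, without overlap (exact two-sided permutation p = 0.1). The Ncoa6 to Kmt2d ratio did not separate the groups. It was 0.088, 0.097 and 0.115 in WT and 0.117, 0.114 and 0.114 in KO (exact two-sided permutation p = 0.3). All these ratios reuse the counts of Ncoa6 and are no further evidence of its rise.

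The 3 methyltransferases were not called. Kmt2a, the promoter enzyme also known as MLL1, read 757, 778 and 717 CPM in WT and 683, 715 and 736 CPM in KO, with overlap. Its log2 fold change was -0.078 (SE 0.039, edgeR adjusted p = 0.176). Kmt2c, an enhancer enzyme (MLL3), read 319, 326 and 304 CPM in WT and 289.5, 293 and 307.5 CPM in KO. Here WT replicate 3 lay below KO replicate 3, so the groups overlapped. The log2 fold change was -0.091 (SE 0.037, edgeR adjusted p = 0.093). Kmt2d, its paralog (MLL4), read 1265, 1200.3 and 1057 CPM in WT and 1091, 1139 and 1138 CPM in KO. WT replicate 3 was the lowest of all 6 libraries for Kmt2d. The log2 fold change was -0.065 (SE 0.055, edgeR adjusted p = 0.45). The confidence intervals were -10.6% to 0.418% for Kmt2a, -11.2% to -0.824% for Kmt2c and -12.0% to 3.92% for Kmt2d.

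Leaving out 1 WT library, replicate 3, changed whether these 3 genes were called. WT replicate 3 held 133283969 counts, the fewest of the 6 libraries. Its log2 CPM correlated at 0.980 with WT replicate 1 and 0.982 with WT replicate 2, which correlated with each other at 0.989. With the KO libraries it correlated at 0.978 to 0.980. The part of depth in these results was not tested. Without WT replicate 3, Kmt2a (-0.11, edgeR adjusted p = 0.0398), Kmt2c (-0.12, adjusted p = 0.0259) and Kmt2d (-0.13, adjusted p = 0.0113) were all called lower, whereas leaving out any other library left them uncalled. Kmt2c was also called when libraries were scaled by their totals alone (-0.12, edgeR adjusted p = 0.0291), and the median of all tested genes shifted to -0.035 under that scaling. Relative to each other the enzymes did not separate the genotypes: the Kmt2a to Kmt2d and Kmt2c to Kmt2d count ratios overlapped between WT and KO (exact two-sided permutation p = 0.7 and 0.6).

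Hcfc1, on the X chromosome (chrX:73942792-73966357 in GRCm38, minus strand), encodes host cell factor, a large adaptor that brings H3K4 methyltransferases and other enzymes to transcription factors. It read 357, 366 and 356 CPM in WT and 331, 332 and 329.8 CPM in KO. The 3 KO libraries lay close together and below all WT libraries. The means were 359.7 ± 5.73 and 331 ± 1.35 CPM (SD, n = 3), a difference of -7.99% (95% confidence interval -12.1% to -3.71%) and a log2 fold change of -0.12 (SE 0.030, edgeR adjusted p = 0.0112). The exact two-sided permutation p was 0.1, the smallest possible. The direction held in all 18 other fits, but the call was lost without WT replicate 2 (edgeR adjusted p = 0.0734), KO replicate 1 (0.054), KO replicate 2 (0.0577) or KO replicate 3 (0.0524). The 485 tested genes of the X chromosome held 51 higher and 59 lower calls, with a median log2 fold change of -0.021, where 12.0% of all tested genes were higher and 12.1% lower. Xist moved with genotype as given above, and its part in the Hcfc1 result was not tested.

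The sequence before the start of each called gene is shown because KMT2A and the SET1 partner CXXC1 hold CXXC domains, which bind unmethylated CG dinucleotides. The lines give the 250 bases upstream of the RefSeq start (GRCm38.p6), 5′ to 3′ on the strand of the gene, with every CG in capitals. They are chr1:132477117-132477366 for Rbbp5 (plus strand), chrX:73966358-73966607 for Hcfc1 (minus strand) and chr2:155440784-155441033 for Ncoa6 (minus strand).
Rbbp5: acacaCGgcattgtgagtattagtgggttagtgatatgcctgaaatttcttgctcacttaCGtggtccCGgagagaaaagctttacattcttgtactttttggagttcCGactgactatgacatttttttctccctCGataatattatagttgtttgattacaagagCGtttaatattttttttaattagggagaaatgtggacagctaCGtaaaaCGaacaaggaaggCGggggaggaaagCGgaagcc
Hcfc1: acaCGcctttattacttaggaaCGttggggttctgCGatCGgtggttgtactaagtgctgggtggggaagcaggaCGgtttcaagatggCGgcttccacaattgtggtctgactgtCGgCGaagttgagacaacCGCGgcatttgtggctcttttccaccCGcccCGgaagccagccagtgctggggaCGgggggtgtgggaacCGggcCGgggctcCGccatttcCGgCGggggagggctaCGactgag
Ncoa6: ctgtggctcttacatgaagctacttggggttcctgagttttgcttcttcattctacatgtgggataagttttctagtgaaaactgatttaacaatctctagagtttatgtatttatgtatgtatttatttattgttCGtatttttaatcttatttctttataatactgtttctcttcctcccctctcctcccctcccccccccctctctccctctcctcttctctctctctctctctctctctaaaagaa
The windows held 10 CG in Rbbp5, 19 in Hcfc1 and 1 in Ncoa6. The Ncoa6 start in RefSeq lies inside the annotated gene, downstream of its outermost start. Of 32851 windows of the same kind, 37.8% held at least as many CG as that of Rbbp5, 19.7% as many as that of Hcfc1 and 92.1% as many as that of Ncoa6. Of the complex genes 9 had at least 1 window, 12 windows in all, and 10 of these held at least the genome-wide median of 6 CG. Of the uncalled genes, Paxip1 had 22, Kmt2d 26, Kmt2a 29 and Kmt2c 48 CG, each more than any called gene, whereas Wdr5 had 12 and the 4 windows of Dpy30 had 1 to 34. This is a description of sequence, and no binding was measured here.

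Per length, Kmt2d, Kmt2a and Hcfc1 were the most abundant of the 10 genes. In CPM per kilobase of exon union, averaged over the 6 libraries, Kmt2d stood at 57.6, Kmt2a at 43.9 and Hcfc1 at 41.3. The order went on with Dpy30 at 19.7, Wdr5 at 17.1, Kmt2c at 15.1, Rbbp5 at 13.8, Ncoa6 at 12.6, Paxip1 at 7.67 and Ash2l at 5.53. Kmt2a and Hcfc1, Kmt2c and Rbbp5, and Rbbp5 and Ncoa6 overlapped across the libraries, and the other neighbours did not. The exon union was longer than the longest protein-coding transcript for Paxip1 (10271 against 5850 bases) and Ash2l (8969 against 3307 bases). On the longest protein-coding transcript they stood at 13.5 and 15.0, Dpy30 at 28.6, Wdr5 at 21.2, Kmt2c at 20.5, Ncoa6 at 17.3 and Rbbp5 at 16.0, so the order among the 4 lowest genes depends on the length used. The order of Rbbp5 and Ncoa6 also depended on genotype: per kilobase of exon union Rbbp5 stood at 15.3 ± 0.912 and Ncoa6 at 12.0 ± 0.523 in WT, against 12.2 ± 0.443 and 13.2 ± 0.122 in KO (SD, n = 3), without overlap of the 2 genes in either group. On the longest protein-coding transcript they stood at 17.8 ± 1.06 and 16.4 ± 0.717 in WT, with overlap. In KO they stood at 14.2 ± 0.514 and 18.1 ± 0.167 on that length, without overlap. Kmt2d, Kmt2a and Hcfc1 were the 3 highest on both lengths.

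**Figure D4:**
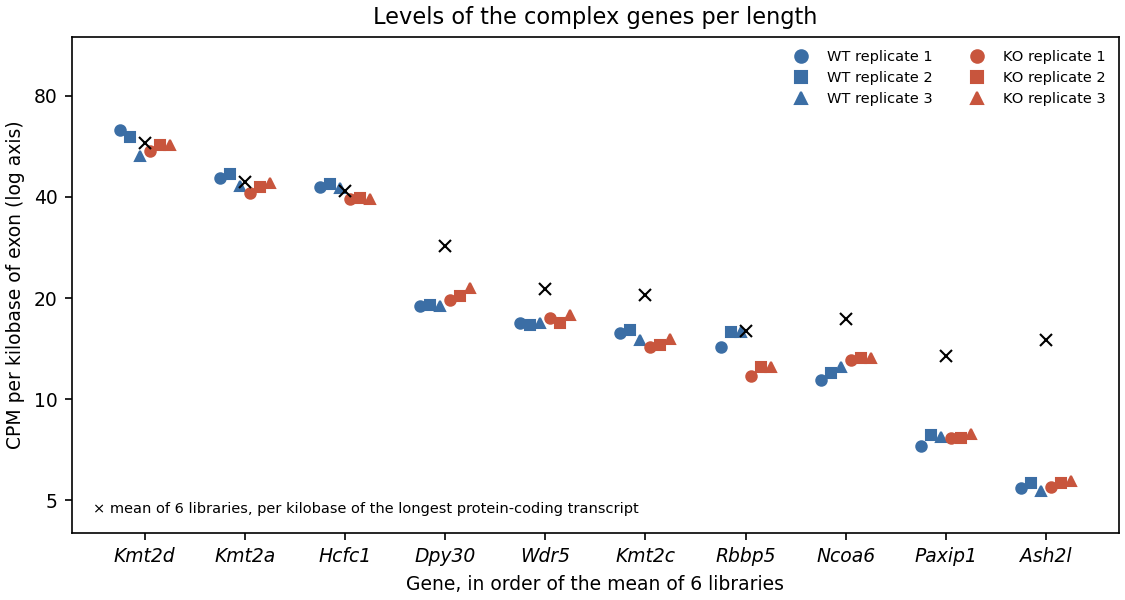
Level of each complex gene in CPM per kilobase of exon union (vertical log axis) in the 3 WT (blue) and 3 KO (red) libraries, in order of the mean. Crosses give the mean per kilobase of the longest protein-coding transcript, which moves Ash2l from 5.53 to 15.0 and Paxip1 from 7.67 to 13.5.

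Kmt2a, Kmt2c and Kmt2d were also set beside the other methyltransferases of the family, Kmt2b, Setd1a and Setd1b, as shares of the summed level per kilobase of exon union. Kmt2d held 27.9% ± 0.923 in WT and 26.6% ± 0.192 in KO (SD, n = 3), and Kmt2c held 7.40% ± 0.267 and 6.90% ± 0.164, both without overlap. The gaps were narrow. The lowest WT and highest KO shares were 26.9% and 26.7% for Kmt2d and 7.10% and 7.07% for Kmt2c. Kmt2a held 21.4% ± 0.740 and 20.1% ± 0.449, with overlap. The share of Setd1a, a SET1-type enzyme for promoter trimethylation, was 12.0% ± 0.416 in WT and 14.0% ± 0.292 in KO, without overlap. Shares add up to a whole, so a higher share of one enzyme lowers the others.

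The tested genes most like Ncoa6 over the 6 libraries, by root mean square difference of log2 CPM from each gene's own mean, were Hnrnph1 (0.0107), Setd2 (0.012) and Tbc1d4 (0.0131). Hnrnph1 encodes a splicing protein, Setd2 the enzyme for H3K36 trimethylation and Tbc1d4 a Rab GTPase-activating protein. Within a difference of 0.05 lay 644 tested genes, so the pattern is a common one.

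Among 63 other genes of H3K4 methylation and its surroundings, 16 were called higher and 9 lower by edgeR, or 39.7% against the 24.1% of all tested genes and the 34.1% of abundant ones. These lists, too, were chosen with earlier results of the data known. All 63 estimates lay within 1.5-fold. Their median log2 fold change was 0.052. Without 1 library at a time, the number called ran from 15 (without KO replicate 2) to 33 (without WT replicate 1) and was 16 without KO replicate 1. The share of all tested genes moved in the same fits, to 15.6%, 28.2% and 16.2%. All 25 kept their direction, and 15 of them were called in each of these 6 fits.

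Of 11 other subunits of the KMT2 and SET1 complexes, 2 rose and 3 fell, against 12.0% and 12.1% of all tested genes and 34.1% called either way among the abundant ones. Kdm6a (UTX), the H3K27 demethylase that works with KMT2C and KMT2D, read 61.5, 61.4 and 63.1 CPM in WT and 78.7, 76.2 and 79.0 CPM in KO. It rose in every KO library, by 0.33 (SE 0.036, edgeR adjusted p = 2.1e-05). Kdm6a lies on the X chromosome and is known to escape X inactivation, and the part of the Xist difference in its rise was not tested. Other X-linked genes differed in direction. Ddx3x rose (0.29, edgeR adjusted p = 0.000527), Eif2s3x fell (-0.36, adjusted p = 0.000225) and Kdm5c was not called (0.093, adjusted p = 0.107). Setd1a rose by 0.23 (SE 0.035, edgeR adjusted p = 0.000339). Lower were Wdr82 (-0.14), the SET1 subunit that binds RNA polymerase II, Bod1l (-0.13), a SET1 partner, and Men1 (-0.12), which encodes menin of the KMT2A and KMT2B complexes. These 3 calls depended on single libraries: Wdr82 was lost without KO replicate 1 or 2, Bod1l also without WT replicate 2, and Men1 was called only without WT replicate 3. The paralogs Kmt2b (0.053, edgeR adjusted p = 0.475) and Setd1b (0.071, adjusted p = 0.157) and the CpG-binding subunit Cxxc1 (0.091, adjusted p = 0.15) were not called. Pagr1a, the partner of Paxip1, had an imprecise estimate of 0.40 (SE 0.318, edgeR adjusted p = 0.46), with 12.6 CPM in KO replicate 3 and 5.74 to 7.20 CPM in the other 5 libraries.

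Of 4 other proteins linked with Zfp335, 2 fell: Cnot6, a deadenylase of the CCR4-NOT complex, by 0.18 (edgeR adjusted p = 0.00402), and Emsy, a chromatin regulator, by 0.12 (adjusted p = 0.0386). Emsy lost its call without WT replicate 2 or 3 or KO replicate 1 or 2. Ccar2, a regulator of deacetylases, was not called (0.039, edgeR adjusted p = 0.584). Of 6 demethylases of H3K4, Kdm5b rose (0.28, edgeR adjusted p = 0.000166) and Kdm5d fell (-0.28, adjusted p = 0.000403). Called were 50% of the 4 Zfp335-linked genes and 33.3% of the 6 demethylases, against 24.1% of all tested genes and 34.1% of abundant ones. Kdm5d lies on the Y chromosome, where 4 of 7 tested genes were lower, against 12.1% of all tested genes. The Y-linked Ddx3y (-0.38, edgeR adjusted p = 9.96e-06) and Uty (-0.54, adjusted p = 1.12e-05) fell as well. The Y-linked Eif2s3y was not called (0.011, edgeR adjusted p = 0.9).

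Readers of H3K4 methylation gave 6 higher calls among 11 genes by edgeR, and the other 5 were not called. Of all tested genes 12.0% were higher, and of the abundant ones 34.1% were called either way. Higher were Ing3 (0.38, edgeR adjusted p = 4.04e-05), a subunit of the NuA4 acetyltransferase, Ing5 (0.26), Ing2 (0.25), Taf3 (0.20), a TFIID subunit that binds trimethylated H3K4, the remodeller Chd1 (0.17) and Phf2 (0.11). Phf2 was called in 1 of the 6 fits that left out a library, the one without WT replicate 1, and the other 5 genes in all 6. Of 7 genes of the NSL complex, an acetyltransferase complex that also holds WDR5 and HCFC1, Kansl3 (0.25), Kansl1 (0.22) and Mcrs1 (0.17) rose and the X-linked Ogt (-0.24, edgeR adjusted p = 0.000389) fell. That was 57.1% of the 7, against 24.1% of all tested genes and 34.1% of abundant ones. OGT is the O-GlcNAc transferase that cleaves HCFC1. Mcrs1 lost its call without WT replicate 2 or 3 or KO replicate 1 or 2.

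Of 9 other nuclear receptor coactivators, Crebbp (0.15) and Ncoa3 (0.12) rose, the latter not without KO replicate 2 (edgeR adjusted p = 0.0514). That was 22.2% of the 9, close to the 24.1% of all tested genes and below the 34.1% of abundant ones. Of 15 other histone lysine methyltransferases, 26.7% were called, also close to the share of all tested genes. Among these 15, Suv39h2, an H3K9 enzyme, rose most (0.45, edgeR adjusted p = 0.00535). It rose from a low level, with 3.87 to 5.05 CPM in WT and 5.93 to 6.54 CPM in KO. Setd2 (0.14) rose, and Ezh2 (-0.13), the H3K27 enzyme of Polycomb, and Setdb1 (-0.13), an H3K9 enzyme, fell. Each of these 3 lost its call in at least 3 of the 6 fits with a library left out, always including those without WT replicate 2, KO replicate 1 and KO replicate 2. For Ezh2 this also held without WT replicate 3 or KO replicate 3, and for Setd2 without KO replicate 3.

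**Figure D5:**
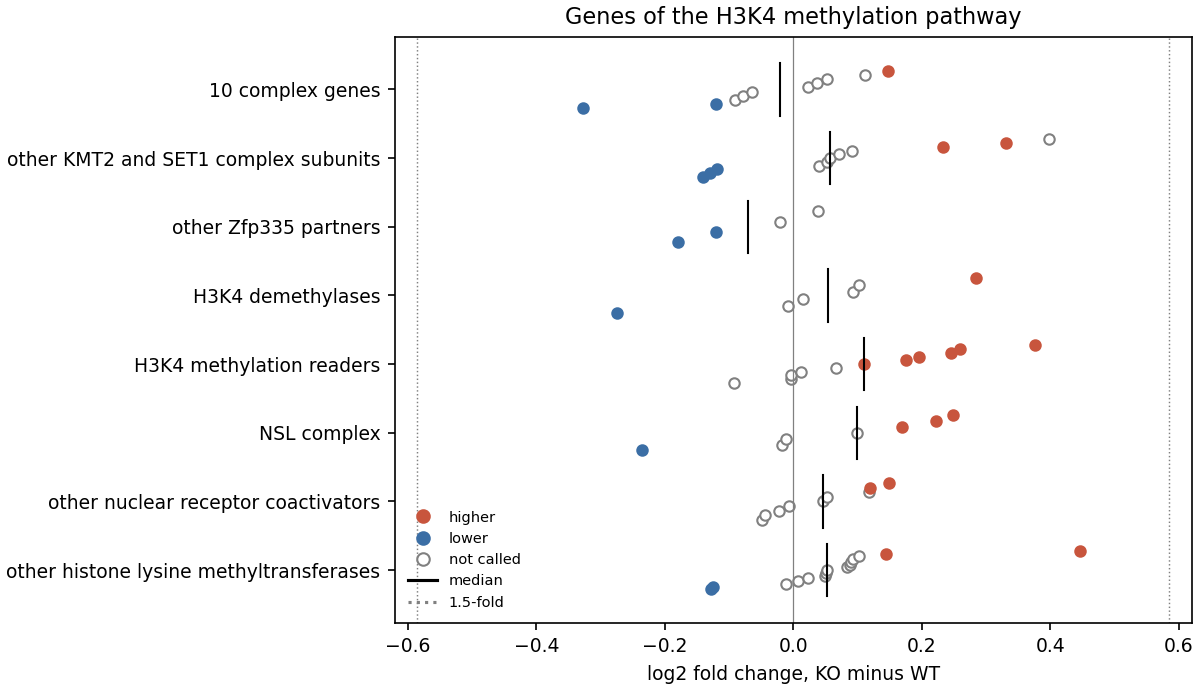
Log2 fold change, KO minus WT (horizontal axis), of the 10 complex genes and of the genes in 7 related lists (rows). Filled points are called higher (red) or lower (blue) at an edgeR adjusted p under 0.05, open points are not called, short bars are list medians and dotted lines 1.5-fold. All points lie within 1.5-fold. The readers of H3K4 methylation hold 6 higher calls among 11 genes, where 12.0% of all tested genes were higher. Of the abundant genes 34.1% were called either way.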

How the data were processed

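RNA from 6 sorted Treg samples was sequenced by the authors. They deposited raw read counts per gene symbol in 1 table of 32285 rows, of which 40 symbols are repeated, and all of its columns belong to the 6 samples. The submitters' processing notes name HISAT2, DESeq2 and mm10; the counting program, annotation and strand setting are not given in the sources used here. Totals per library gave the depth.

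WT and KO counts were compared with edgeR 4.0.16 (R 4.3.3; TMM factors, filterByExpr, quasi-likelihood test, robust fit) over 17307 genes without covariates, with Benjamini-Hochberg adjustment and calls at 0.05. CPM used TMM-scaled totals, with a prior count of 2 before log2 for permutation tests. DESeq2 1.42.0, limma-voom 3.58.1, other scalings, no filter, GC and length trends, the replicate block and leaving out each library were alternatives. Only the main edgeR fit was tested on simulated counts. Among genes of at least 20 CPM, it called 8 of 32 changed 1.1-fold. It called 31 of 31 changed 1.25-fold and 24 of 24 changed 2-fold. The simulation changed 200 genes and gave each gene the spread typical of its abundance, so these shares need not hold for the real genes. A gene that was not called may still differ, within its confidence interval. Among the uncalled complex genes the intervals reached -12.0% for Kmt2d and 16.4% for Dpy30. Gene positions and lengths came from GENCODE vM21 (GRCm38, the same build as mm10), and promoters from RefSeq.

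The complex genes and all lists were chosen with earlier results of these data known. Named were the 10 genes, Zfp335, all called genes of the 7 related lists, uncalled paralogs or direct partners, the 3 genes most like Ncoa6, and a few markers.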

Additional observations from a re-analysis of the deposited data

How the results depend on the processing

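Rbbp5 and Zfp335 kept direction and call in all 18 alternatives. Ncoa6 and Hcfc1 kept direction in all 18 and the call in 15 and 14, losing it only when a library was left out. Of the 10 complex genes, 3 were called; leaving out 1 library gave 1 to 6 called, 0 to 1 of them higher and 1 to 5 lower, with 6 without WT replicate 3 and 1 without WT replicate 2, KO replicate 2 or KO replicate 3. With the GC content trend removed, 2 were called higher, Dpy30 in addition. Paxip1 changed sign with library totals alone (-0.0075) and without WT replicate 1 (-0.012); leaving out 1 library gave -0.012 to 0.047. For the 63 related genes the count without 1 library, added after seeing the data, ran from 15 to 33, against 25. The coding-transcript length was also added after seeing the data. The causes were not tested, but fits without a library rest on fewer samples.

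The replicate numbers showed little pairing of the samples: deviations of same-numbered libraries correlated at 0.028, 0.0082 and 0.033. Those of differently numbered libraries correlated at -0.037 to 0.019. With 3 libraries a group, this check cannot show that the samples were unpaired. With the replicate block the same 3 complex genes were called, and 4227 of all tested genes against 4170 without the block. Among the 10 genes no other alternative moved a call beyond those given here and beside the results.

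No library held fewer than 133283969 counts, and the effect of depth was not tested. With 3 libraries a group, the 95% confidence interval was -25.9% to -14.3% for Rbbp5 and -12.0% to 3.92% for Kmt2d.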
